A study of Homo sapiens with 6 samples.

Results

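The CXCR4 axis and a set of other chemokines were compared between MDA-MB-231-BR and MDA-MB-231 breast cancer cells in RNA sequencing libraries. The genes were 10 chosen by name: the receptor CXCR4, its ligand CXCL12, the atypical receptor ACKR3, and the ligands CXCL16, CX3CL1, CCL2, CCL5, CCL20, CXCL10 and CXCL11. Of the 17039 genes in the table, 9 of these 10 were found, and ACKR3 was not analysed here. The genes were chosen with their difference between the lines already known, so their levels are given as a description, with no test.

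MDA-MB-231 is a human triple-negative breast cancer line, and MDA-MB-231-BR, written without its prefix in the labels, is a variant of it that was selected for its ability to colonise the brain. The number in the cell line field of the labels rises with the replicate within each group, so the libraries were grouped by their titles. There were 3 libraries of each line, and the comparison asks which genes differ between the brain-seeking variant and its parental line. Both lines were grown in DMEM with 10% fetal bovine serum and 1% penicillin-streptomycin, and MDA-MB-231-BR cells alone also received the antibiotic G418 at 200 µg/mL, so that line and medium cannot be told apart. The libraries were made from cells in culture, without the stroma, blood vessels or leukocytes that exchange chemokines with a tumour. Whether the replicates were separate cultures is not stated in the study's methods, so the p-values below measure only the spread between these samples, which may be technical.

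Chemokines are small secreted proteins that direct cell movement along a gradient by binding receptors that couple to inhibitory G proteins. CXCR4 and its ligand CXCL12 retain blood-forming cells in the bone marrow and guide neurons and lymphocytes, and CXCR4 on breast cancer cells has been linked to spread towards organs that make CXCL12. ACKR3 binds CXCL12 and CXCL11 but signals mainly through arrestins and removes its ligands from the surroundings.

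Expression was given as FPKM, a fragment count divided by transcript length and by the size of the library, which allows levels of different genes to be set side by side. Differences between the lines are given on the scale of log2(FPKM + 0.1), MDA-MB-231-BR minus MDA-MB-231, and this scale understates the change of genes near 0. Read counts were not used here, but the spacing of low values put 1 fragment at about 0.0404 to 0.0434 FPKM for a transcript of 1 kb. The spacing was weak, with a mean cosine of 0.164 to 0.272 on a scale where 1 is a perfect step, so fragment numbers given here are approximate. These steps imply that each library held 23000000 to 24800000 fragments, as an estimate. At that depth a value of 0.05 FPKM rests on about 1 fragment for such a transcript.

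In the table as a whole, 13465 genes had a mean of at least 0.1 FPKM and were tested with limma. A gene was called when its Benjamini-Hochberg adjusted p was under 0.05, its absolute log2 fold change was over 1 and its mean was at least 1 FPKM in at least one line. An adjusted p under 0.05 alone was reached by 77.3% of the genes tested. By the full rule 1476 genes (11.0%) were called, 1086 higher (8.07%) and 390 lower (2.90%) in MDA-MB-231-BR cells. The FPKM of a library summed to 465020 to 472007 for MDA-MB-231-BR and to 486937 to 496420 for MDA-MB-231. The lowest correlation across genes between libraries of a line was 0.997 and the highest between lines was 0.902. VIM, CD44, KRT8, KRT18 and EGFR, which MDA-MB-231 cells are known to express, were at 1 FPKM or more in all 6 libraries. Of the receptors that triple-negative tumours lack as proteins, PGR was at most 0.07 FPKM and ESR1 0.74 to 1.08 FPKM, whereas ERBB2 RNA was present at 4.75 to 5.08 FPKM in MDA-MB-231 and 9.61 to 10.2 FPKM in MDA-MB-231-BR libraries.

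Of the 9 genes with values, CXCR4 stood apart from the rest: it was the only gene of the 9 that was listed at 10 FPKM or more, and this was so in every MDA-MB-231-BR library and in no MDA-MB-231 library. CCL5 was expressed in both lines at a like level. The remaining 7 genes, all of them ligands, were under 1 FPKM in every library of both lines.

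**Figure D1:**
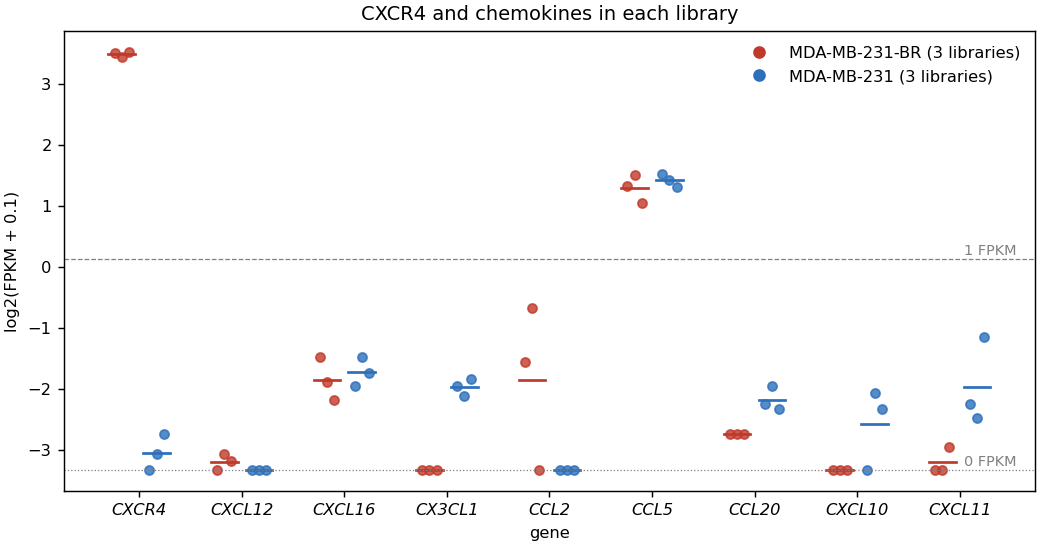
FPKM of the 9 genes in each library, on a log2(FPKM + 0.1) axis, with MDA-MB-231-BR libraries in red and MDA-MB-231 libraries in blue. Points are libraries (3 of each line), short bars are the mean of the log2 values, and grey lines mark 0 and 1 FPKM. CXCR4 is above 10 FPKM in the MDA-MB-231-BR libraries and at most 0.05 FPKM in the MDA-MB-231 libraries, CCL5 lies at 1.98 to 2.78 FPKM in all 6, and every other gene is below the 1 FPKM line.

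CXCR4 (gene identifier 7852, chromosome 2) encodes the receptor for CXCL12. Its level was 11.3, 10.8 and 11.4 FPKM in the MDA-MB-231-BR libraries and 0, 0.02 and 0.05 FPKM in the MDA-MB-231 libraries. The MDA-MB-231-BR libraries lay close together and far from the MDA-MB-231 libraries, and the means were 11.1 ± 0.323 against 0.0233 ± 0.0252 FPKM (SD, n = 3 each). With the longest coding transcript as its length, these values correspond to roughly 505 to 523 fragments in each MDA-MB-231-BR library and 0 to 2.33 in each MDA-MB-231 library. Ranked by mean FPKM among the 17039 genes, CXCR4 held place 6019 in MDA-MB-231-BR cells and place 14483 in MDA-MB-231 cells.

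The log2 difference of CXCR4 was 6.53, and because the MDA-MB-231 level is near 0 its size is set by the pseudocount: it was 3.57 when 1 was added to each FPKM in place of 0.1, and 8.73 when 0.01 was added. It lay between 6.39 and 6.68 with each library left out in turn. In RNA from whole cultures, a larger share of cells that express CXCR4 and more CXCR4 RNA per cell cannot be told apart.

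Of the 9 genes, 4 had a mean above the filter: CXCR4, CXCL16, CCL2 and CCL5. CXCR4 and CCL2 passed it only through their MDA-MB-231-BR libraries, and no call is read for any of the 9. Whether the libraries of the lines overlapped does not depend on the filter: they did not for 4 of the 9 genes, with CXCR4 higher and CX3CL1, CCL20 and CXCL11 lower in MDA-MB-231-BR cells. The same held for 66.0% of the 16970 genes above 0 in some library. Among the 5415 genes that were above 0 but under 1 FPKM in all libraries, as CX3CL1, CCL20 and CXCL11 were, it held for 31.1%.

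The ligand of CXCR4 was close to absent from both lines. CXCL12 (6387, chromosome 10), which stromal cells such as fibroblasts and endothelial cells make, was listed at 0, 0.02 and 0.01 FPKM in the MDA-MB-231-BR libraries and at 0 in all MDA-MB-231 libraries. These levels are those of at most about 2 fragments, so a difference between the lines was not detectable at this depth.

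CCL5 (6352, chromosome 17) attracts T cells and monocytes through receptors that include CCR1 and CCR3. It was measured at 2.41, 2.73 and 1.98 FPKM in MDA-MB-231-BR and at 2.78, 2.58 and 2.38 FPKM in MDA-MB-231 libraries. The libraries of the lines overlapped, and the means were 2.37 ± 0.376 and 2.58 ± 0.200 FPKM (SD, n = 3 each). The log2 difference was -0.12, and it became -0.23 without MDA-MB-231-BR replicate 2, -0.01 without MDA-MB-231-BR replicate 3 and -0.07 without MDA-MB-231 replicate 1. It was -0.45 after quantile normalization, which moved the median log2 difference of all genes tested from 0.08 to -0.06.

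CCL2 (6347, chromosome 17), the main attractant of monocytes through CCR2, was listed at 0.24, 0.53 and 0 FPKM in MDA-MB-231-BR libraries and at 0 in all MDA-MB-231 libraries. The MDA-MB-231-BR libraries disagreed among themselves, with 1 of them at the level of the MDA-MB-231 libraries. The mean of 0.257 ± 0.265 FPKM (SD, n = 3) had an SD as large as itself, and the log2 difference of 1.47 became 0.88 without MDA-MB-231-BR replicate 2 and 2.21 without MDA-MB-231-BR replicate 3. That difference was 0.31 with a pseudocount of 1 and 3.47 with 0.01.

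CCL20 (6364, chromosome 2) is the ligand of CCR6 on dendritic cells and on T helper cells that make interleukin-17. It was listed at 0.05 FPKM in each MDA-MB-231-BR library and at 0.11, 0.16 and 0.10 FPKM in the MDA-MB-231 libraries. Although the lines did not overlap, the values stand for about 1 fragment per MDA-MB-231-BR library and 2 to 3 per MDA-MB-231 library, and the log2 difference was -0.56. That difference was -0.10 with a pseudocount of 1 and -1.13 with 0.01.

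CXCL16 and CX3CL1 are the chemokines that are made as membrane proteins and released by cleavage. CXCL16 (58191, chromosome 17), the ligand of CXCR6, was at 0.26, 0.17 and 0.12 FPKM in MDA-MB-231-BR and 0.16, 0.26 and 0.20 FPKM in MDA-MB-231 libraries. The lines overlapped throughout, with a log2 difference of -0.13. It ranged from -0.32 without MDA-MB-231-BR replicate 1 to 0.04 without MDA-MB-231-BR replicate 3, and was -0.24 without MDA-MB-231 replicate 1 and -0.01 without MDA-MB-231 replicate 2. CX3CL1 (6376, chromosome 16), also called fractalkine, is the ligand of CX3CR1 on monocytes, natural killer cells and microglia. It was listed at 0 in all MDA-MB-231-BR libraries and at 0.16, 0.13 and 0.18 FPKM in the MDA-MB-231 libraries. Its MDA-MB-231 values rest on an estimated 18.3 to 25.7 fragments per library, the most of any of the 7 low genes. This takes the longest of its 4 coding transcript lengths, 5.80 kb, and a shorter one would give fewer. The log2 difference of CX3CL1 was -1.355, and it was -0.21 with a pseudocount of 1 and -4.05 with 0.01.

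CXCL10 and CXCL11 are induced by interferons and attract T cells through CXCR3. CXCL10 (3627, chromosome 4) was listed at 0 in all MDA-MB-231-BR libraries and at 0, 0.14 and 0.10 FPKM in the MDA-MB-231 libraries. CXCL11 (6373, chromosome 4) was at 0, 0 and 0.03 FPKM in the MDA-MB-231-BR libraries and at 0.11, 0.08 and 0.35 FPKM in the MDA-MB-231 libraries. In both genes the higher values lay in MDA-MB-231 libraries, but only CXCL11 was without overlap, and all values were low. The log2 difference was -0.75 for CXCL10, and it became -1.13 without MDA-MB-231 replicate 1 and -0.50 without MDA-MB-231 replicate 2. For CXCL11 it was -1.24, and it lay between -1.49 and -0.83 with each library left out. The size of both is set by the pseudocount. With a pseudocount of 1 they were -0.11 for CXCL10 and -0.22 for CXCL11, and with 0.01 they were -2.455 and -3.31.

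In order of mean level, MDA-MB-231-BR cells had CXCR4 first, then CCL5, then CCL2 and CXCL16, whose libraries overlapped, then CCL20. At the end were CXCL11, CXCL12, CX3CL1 and CXCL10, whose libraries overlapped at or near 0. CCL2 is placed by its mean only. Its libraries, at 0.24, 0.53 and 0 FPKM, also spanned the levels of CCL20 and of the genes at the end. In MDA-MB-231 cells CCL5 was first and did not overlap with any other. It was followed by CXCL16, CXCL11, CX3CL1, CCL20, CXCL10, CXCR4, CCL2 and CXCL12, and each of these overlapped with the next. CXCR4 was thus above CCL5 in the MDA-MB-231-BR libraries and below it in the MDA-MB-231 libraries.

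Sequences upstream of the genes were taken from a set of promoter sequences (GRCh38.p14) that held 5 of the 10 genes, with 7 start sites in all. For each start site the 250 bases before it were searched on both strands for the letters of 5 motifs. These were GGNNTTTCC, bound by NF-kB, GAAANNGAA, the interferon-stimulated response element, ACGTG, the core of the hypoxia response element, TGANTCA, bound by AP-1, and TATAAA, the TATA box. The sequences of CXCR4, CCL20, CXCL10 and CXCL11 are shown because they are those with a match and because they belong to the genes whose higher values fell in different lines. They are written 5′ to 3′ on the strand of the gene, ending at the last base before the start site, with matches in capitals.
CXCR4, most upstream start site (chr2:136118150-136118399, minus strand): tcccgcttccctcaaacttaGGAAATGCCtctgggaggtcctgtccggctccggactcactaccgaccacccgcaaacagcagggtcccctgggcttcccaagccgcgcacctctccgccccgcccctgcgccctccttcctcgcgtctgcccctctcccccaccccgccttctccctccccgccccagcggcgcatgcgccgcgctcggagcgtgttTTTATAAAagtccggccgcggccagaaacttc
CCL20 (chr2:227813592-227813841, plus strand): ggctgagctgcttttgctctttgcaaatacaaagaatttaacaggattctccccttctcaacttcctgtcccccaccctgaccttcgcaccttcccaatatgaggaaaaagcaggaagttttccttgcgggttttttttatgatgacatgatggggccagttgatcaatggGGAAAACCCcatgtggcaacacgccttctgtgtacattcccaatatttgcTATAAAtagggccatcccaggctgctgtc
CXCL10 (chr4:76023498-76023747, minus strand): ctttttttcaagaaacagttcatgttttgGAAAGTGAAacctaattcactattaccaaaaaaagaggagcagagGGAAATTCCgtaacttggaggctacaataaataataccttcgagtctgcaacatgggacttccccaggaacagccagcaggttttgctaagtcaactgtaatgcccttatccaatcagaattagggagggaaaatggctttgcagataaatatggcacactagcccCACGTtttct
CXCL11 (chr4:76036071-76036320, minus strand): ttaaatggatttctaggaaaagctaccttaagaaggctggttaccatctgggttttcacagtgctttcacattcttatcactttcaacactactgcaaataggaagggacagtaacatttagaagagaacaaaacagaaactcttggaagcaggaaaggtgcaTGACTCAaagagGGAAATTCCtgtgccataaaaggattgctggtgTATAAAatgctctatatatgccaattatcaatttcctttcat
The GGNNTTTCC letters occurred in these 4 sequences, on the strand opposite to the gene, and in 5.48% of all 35116 promoters of this length. Counting back from the start site to the leftmost base, the match began at -230 in CXCR4, -79 in CCL20, -176 in CXCL10 and -75 in CXCL11. GAAANNGAA was found only in CXCL10, at -221, and occurs in 6.88% of all promoters. ACGTG was found only in CXCL10, at -10 on the opposite strand, and occurs in 18.5%. TGANTCA was found only in CXCL11, at -87, and occurs in 6.57%. TATAAA lay at -29 in CCL20, at -42 in CXCL11 and at -30 in CXCR4, where it overlapped a match on the opposite strand at -32, and it occurs in 10.7% of all promoters. The other 2 start sites of CXCR4 and the start site of CXCL12 held none of the 5 motifs. The G and C content was 68% before the CXCR4 start site shown and 78% before that of CXCL12, against 46.8% for CCL20, 40.8% for CXCL10 and 37.2% for CXCL11, with a median of 58% over all promoters. These matches are letters in a window and were not measured as bound sites.

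Apart from CXCR4, the receptors of the chosen ligands were low in both lines. Of the 10 listed, 6 had values, and all 6 were under 0.5 FPKM in every library. CXCR6, the receptor of CXCL16, was at 0.17, 0.25 and 0.21 FPKM in MDA-MB-231-BR and 0.36, 0.37 and 0.22 FPKM in MDA-MB-231 libraries, which overlapped. CCR1, a receptor of CCL5, was at 0.34, 0.42 and 0.46 FPKM in MDA-MB-231-BR and 0.05, 0.04 and 0.03 FPKM in MDA-MB-231 libraries. Its log2 fold change was 1.85 ± 0.18 (SE; limma adjusted p = 5.7e-06), and it was not called because it stayed under 1 FPKM. CCR1 passed the filter only through its MDA-MB-231-BR libraries, so this p-value is not read as evidence of a difference. CCR3, the eosinophil receptor that also binds CCL5, was at most 0.06 FPKM, and CCR6, the receptor of CCL20, at most 0.12 FPKM. CCR2, the receptor of CCL2, was at most 0.02 FPKM, and ACKR2, a scavenger of CC chemokines, at most 0.01 FPKM. CXCR3, CX3CR1 and ACKR1 were not analysed here. Among the receptors of chosen ligands with values, CXCR4 was thus the only one above 0.5 FPKM.

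Among all chemokine receptors, 15 of the 23 listed had values, and their summed level was 18.5 to 18.8 FPKM in MDA-MB-231-BR and 5.27 to 5.58 FPKM in MDA-MB-231 libraries. CXCR4 made up 59.7% of the sum in MDA-MB-231-BR and 0.44% in MDA-MB-231 cells. Of the other 14, only CCRL2, an atypical receptor that binds chemerin, was at 1 FPKM or more, in all 6 libraries. Among the ligands, 22 of 48 had values, and their sum was 12.5 to 14.6 FPKM in MDA-MB-231-BR and 183.7 to 191.8 FPKM in MDA-MB-231 libraries. CCL5 made up 17.7% of this sum in MDA-MB-231-BR and 1.38% in MDA-MB-231 cells, where its own level was like that in MDA-MB-231-BR. CXCL1 and CXCL8 accounted for most of the MDA-MB-231 sum.

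**Figure D2:**
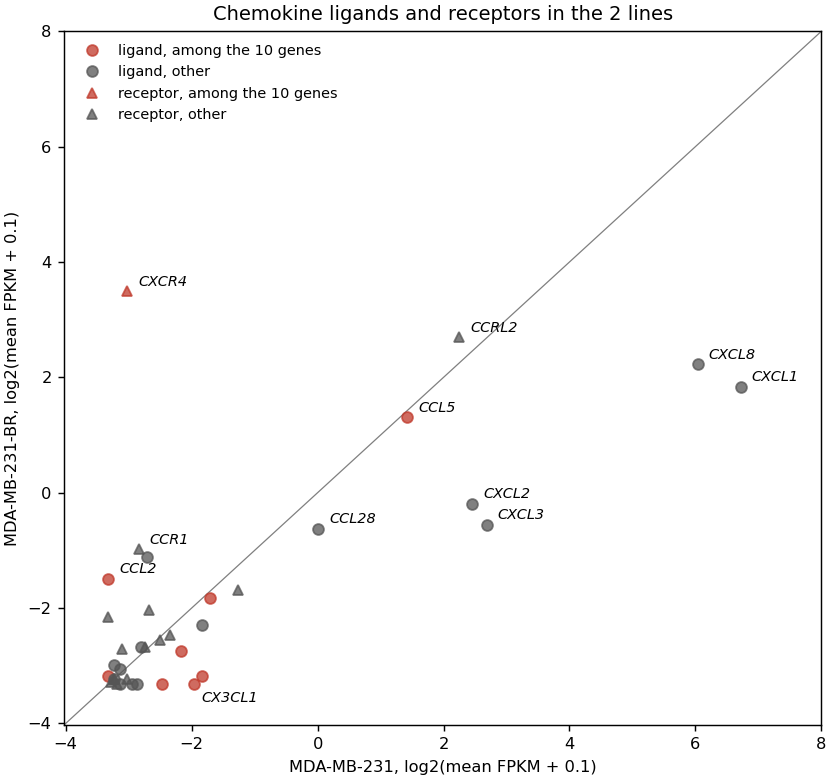
Mean FPKM of 37 chemokine ligands (circles) and receptors (triangles) in MDA-MB-231 (horizontal axis) and MDA-MB-231-BR cells (vertical axis), both as log2(mean FPKM + 0.1) over 3 libraries, with the line of equal level in grey. The 9 chosen genes with values are red and the 28 others grey. CXCR4 lies alone at the upper left, CCL5 on the line of equal level, CXCL1, CXCL8, CXCL2 and CXCL3 to the right of it, and the remaining chosen ligands at the lower left.

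Genes of the same system that were not among the 10 were read from the fit over all genes, in which 11.0% were called and the median log2 fold change was 0.08. Among 40 other chemokine ligands, 14 had values, 7 were tested, 4 were called lower in MDA-MB-231-BR cells and none higher, and their median log2 fold change was -2.65. The 4 were CXCL1, CXCL8, CXCL3 and CXCL2, which attract neutrophils through CXCR2. CXCL1 fell by 4.89 on the log2 scale, from 105 ± 2.29 to 3.48 ± 0.393 FPKM, and CXCL8 fell by 3.81, from 65.5 ± 3.74 to 4.60 ± 0.522 FPKM (SD, n = 3; limma adjusted p = 7.8e-12 and 6.8e-11). CXCL3 fell by 3.30 and CXCL2 fell by 2.65. CXCL1, CXCL2 and CXCL3 are close paralogs, so how reads were divided among them is uncertain. Among 24 other receptors, a list that also held receptors of chemokine-like ligands such as CMKLR1, 17 had values, 6 were tested, with a median log2 fold change of 0.55, and limma called none in either direction. CMKLR1, CCR1, CCR10 and CCRL2, 4 of the 6, had an adjusted p under 0.05 and were higher in MDA-MB-231-BR cells, and unadjusted p-values gave the same number. Over all genes tested, 77.3% had an adjusted p under 0.05. CMKLR1, CCR1 and CCR10 passed the filter only through their MDA-MB-231-BR libraries. Their p-values and the median of 0.55 are therefore not read as evidence of a difference. CMKLR1, CCR1 and CCR10 also stayed under 1 FPKM, and the log2 fold change of CCRL2 was 0.44. CMKLR1, CCR10 and CCRL2 are named after their values were seen.

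The list of CXCR4 signalling and trafficking genes held 58 genes, of which 53 were tested. Of these, 5 were called higher, 4 lower and 44 were not called, and the median log2 fold change was -0.07. CD74, the surface receptor for the cytokine MIF that can pair with CXCR4 and is also the invariant chain of HLA class II, rose from 0.0567 ± 0.0306 to 4.35 ± 0.113 FPKM. Its log2 fold change was 4.85 ± 0.147 (SE; limma adjusted p = 1.2e-09). CD74 was therefore, like CXCR4, near 0 in MDA-MB-231 and present in every MDA-MB-231-BR library. It too passed the filter only through its MDA-MB-231-BR libraries, so its p-value and its call are not read as evidence of a difference. RGS4, which shortens signalling by inhibitory G proteins, rose by 3.13 on the log2 scale, from 0.827 to 7.98 FPKM.

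The kinases of the list went in different directions. PIK3CG, the PI3-kinase subunit that G proteins activate, rose from 1.89 to 4.87 FPKM, a log2 fold change of 1.32, whereas PIK3CD, the subunit first known from leukocytes, fell by 1.52, from 12.6 to 4.32 FPKM. LIMK1, which controls actin through cofilin, fell by 1.68, from 20.4 to 6.28 FPKM. PTK2B, a focal adhesion kinase, fell by 2.51, from 1.00 to 0.0933 FPKM. It passed the filter only through its MDA-MB-231 libraries, so its call is not read as evidence of a difference. Its MDA-MB-231 mean lies at the limit of 1 FPKM, and it was called in 11 of the 15 fits run, the reported one and its alternatives. The other 3 genes called, named here after their values were seen, were RAC2, which fell by 1.27 on the log2 scale, and ARRB1 and RGS2, which rose by 1.14 and 1.005 and were called in 13 and 10 of 15 fits. Of the other ligands that CXCR4 is known to bind, MIF was present at 288 ± 18.3 FPKM in MDA-MB-231-BR and 416 ± 31.1 FPKM in MDA-MB-231 cells and was not called, and it too is named after its values were seen.

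Proteins that cut, modify or present chemokines formed a list of 23 genes, with 19 tested, 3 called higher, 1 lower and a median log2 fold change of -0.03. MMP1, a collagenase, rose by 5.51 on the log2 scale, from 43.0 to 1962 FPKM. The syndecans, whose heparan sulfate chains hold chemokines at the cell surface, did not go one way: SDC2 and SDC3 rose by 2.15 and 1.45, and SDC4 fell by 1.11. ADAM10 and ADAM17, the proteases that release CXCL16 and CX3CL1, were at 24.9 and 12.1 FPKM in MDA-MB-231-BR and 28.3 and 17.6 FPKM in MDA-MB-231 cells, and neither was called. Both are named after their values were seen.

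Among 25 regulators of chemokine transcription, all tested, 1 was called higher and 3 lower, with a median log2 fold change of 0.06. The subunits of the alternative NF-kB pathway fell: RELB fell by 2.13 on the log2 scale, from 7.57 to 1.67 FPKM, and NFKB2 fell by 1.36, from 23.3 to 9.02 FPKM. HIC1, a repressor that acts on ACKR3 among other genes, fell by 1.27, from 1.23 to 0.457 FPKM, and was called in 13 of 15 fits. KLF2, a factor that restrains inflammatory genes, rose from 5.90 to 16.9 FPKM. HIF1A, which raises CXCR4 transcription in hypoxia, was at 48.2 FPKM in MDA-MB-231-BR and 92.9 FPKM in MDA-MB-231 cells, a log2 fold change of -0.94 that is under the limit of 1. HIF1A is likewise named after its values were seen.

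**Figure D3:**
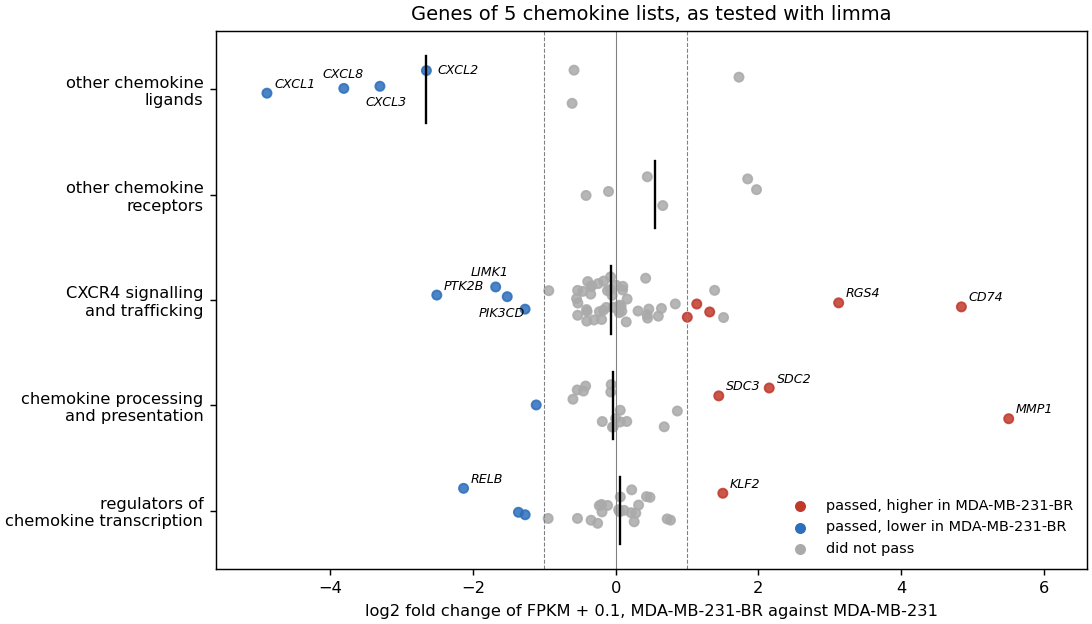
Log2 fold change of FPKM + 0.1, MDA-MB-231-BR against MDA-MB-231, for each gene tested in the 5 lists. Points are genes (red, called higher; blue, called lower; grey, not called), with vertical scatter only to separate them, thick black lines are list medians and dashed lines mark changes of 1 and -1. The median of the other ligands lies at -2.65, and that of the other receptors at 0.55, and those of the 3 lists of signalling, processing and regulator genes lie between -0.07 and 0.06. Among the other receptors, CMKLR1, CCR1 and CCR10 passed the filter only through their MDA-MB-231-BR libraries.

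The genes whose levels were most like those of CXCR4 were taken as those with the smallest Euclidean distance of log2(FPKM + 0.1) over the 6 libraries. They were AGR2, a disulfide isomerase, with a distance of 0.669, LRRC17 with 0.702, NAP1L3 with 0.703, FBXL7 with 0.789 and BST2, an interferon-induced protein that tethers viruses, with 0.857. AGR2 was at 11.2, 12.2 and 11.8 FPKM in MDA-MB-231-BR libraries and at 0 in MDA-MB-231 libraries. For BST2 the parental mean was 0.0533 ± 0.0231 FPKM, against 12.3 ± 1.53 FPKM in MDA-MB-231-BR cells (SD, n = 3 each). In all, 59 genes were at or under 0.05 FPKM in every MDA-MB-231 library and at 1 FPKM or more in every MDA-MB-231-BR library, and CXCR4 was the 8th of them by its mean in MDA-MB-231-BR cells.

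The differences of neighbouring genes were read from the 20 genes on either side with a mean of at least 1 FPKM, in the gene order of RefSeq. The genes around CXCR4 did not share its direction: 13 were higher and 27 lower in MDA-MB-231-BR cells, their median log2 difference was -0.29, and the nearest on either side, DARS and HNMT, were at -0.54 and -0.28. The median over all 11090 genes placed was 0.06. Around CCL5 the median was 0.43, with 36 of 40 genes higher, although CCL5 itself was at -0.12. Around CCL2, on the same chromosome, it was 0.33, with 34 of 40 higher, but 28 of these 40 genes are also among the neighbours of CCL5, and CCL5 is itself the 12th neighbour of CCL2 on one side. CXCL10 and CXCL11 share their neighbours, whose median was 0.46, with 31 of 40 higher, while both genes had negative differences. The 4 neutrophil attractants described above lie among these neighbours. The medians were -0.26 around CXCL12, -0.15 around ACKR3, 0.02 around CXCL16, 0.13 around CX3CL1 and 0.16 around CCL20.

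**Figure D4:**
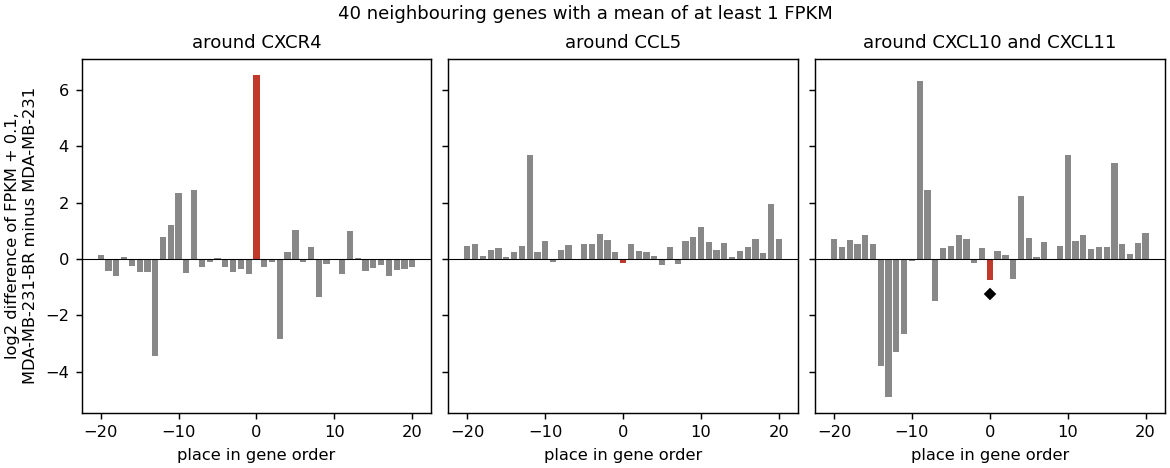
Log2 difference of FPKM + 0.1, MDA-MB-231-BR minus MDA-MB-231, of the 40 neighbouring genes with a mean of at least 1 FPKM (grey bars), by place in gene order, around CXCR4, CCL5 and the pair CXCL10 and CXCL11. The red bar at place 0 is the named gene, CXCL10 in the right panel, where the black diamond is CXCL11. The bar of CXCR4 at 6.53 stands among neighbours with a median of -0.29, and CCL5 at -0.12 among neighbours with a median of 0.43.

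Markers of other cell types that carry chemokine receptors were low in both lines. Of 8 leukocyte markers, 4 had values, and their sum was 0.43 to 0.58 FPKM in MDA-MB-231-BR and 0.40 to 0.60 FPKM in MDA-MB-231 libraries. PTPRC, the common leukocyte antigen, was at 0.02, 0.04 and 0.01 FPKM in MDA-MB-231-BR libraries and at 0 in MDA-MB-231 libraries, and CD3E was at 0 in all MDA-MB-231 libraries too. The sum of 3 endothelial markers was 0.41 to 0.50 and 0.20 to 0.22 FPKM, and that of 3 markers of astrocytes and neurons, with AQP4 at 0 in all MDA-MB-231 libraries, was 0.14 to 0.24 and 0 to 0.03 FPKM. By their means, LYZ and CDH5 were higher in MDA-MB-231 cells, and the other markers with values were higher in MDA-MB-231-BR cells. Whether other cells contributed to the CXCR4 level was not tested.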

How the data were processed

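Poly(A) RNA of 6 libraries, 3 of MDA-MB-231-BR and 3 of MDA-MB-231 cells, was sequenced on BGISEQ-500 with paired reads of 100 bases. The authors filtered the reads with SOAPnuke and deposited gene levels in FPKM, rounded to 2 decimals. Their processing notes name HISAT2 2.0.4, Bowtie2 2.2.5 and GRCh38.p12. The program that computed the FPKM and the annotation release are not given in the sources used here. FPKM depends on the sum of the library and is no count, so no test on counts was run. All columns of samples were used, and 25 gene symbols stored as dates were restored through their identifiers. None of 80 genes that every cell uses was listed at 0.

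Genes with a mean of at least 0.1 FPKM were fitted in limma 3.58.1 (R 4.3.3) on log2(FPKM + 0.1), with the line as the only term, by lmFit and eBayes with a trend, and p-values were adjusted by Benjamini-Hochberg over all of them. The fit was tested on simulated data. The step of 1 fragment was estimated from low values of 2797 genes with 1 coding transcript length in GENCODE 29. The 10 genes, the lists and the motifs were chosen with earlier results of these data known. Genes named were the 10, the receptors of their ligands, up to 6 called genes of each list by absolute log2 fold change and the 5 genes most like CXCR4, and others are marked in the text. Figures were drawn with Python 3.11.15, pandas 2.3.3, numpy 2.4.6 and matplotlib 3.10.9.

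The alternatives were pseudocounts of 1 and 0.01, no filter, a filter at a mean of 1 FPKM, quantile normalization, scaling by the median of ratios, eBayes with no trend, the replicate number as a block, each library left out, a mean of 1 FPKM in both lines and an absolute log2 fold change over 1.5. Of these, the pseudocounts, the scalings and the libraries left out were run for the levels of the 10 genes, which have no test. Proteins were not analysed here, and some single results are left out.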

Additional observations from a re-analysis of the deposited data

How the results depend on the processing

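Total counts of called genes for the whole table and the 5 lists stayed within 1.5 times their value under the pseudocounts, filters, scalings, eBayes without the trend and each library left out, the last with 1476 to 1498 genes called in all. With a mean of at least 1 FPKM required in both lines, 868 genes were called in all (630 higher, 238 lower) and 2 of the other ligands, CXCL1 and CXCL8. With an absolute log2 fold change over 1.5, 796 genes were called in all (599 higher, 197 lower), 5 of the signalling list (2 higher), 2 of the processing list (0 lower) and 2 of the regulators (1 lower). Both settings call fewer genes by construction. The share of called genes that were higher in MDA-MB-231-BR cells was 73.6%, and it was 57.7% (809 higher, 594 lower) after quantile normalization. A pseudocount of 1 gave 720 genes called higher in all. In the signalling list, 3 genes rather than 5 were called higher with a pseudocount of 1, after quantile normalization and with 1 FPKM in both lines. None of the 21 called genes of the lists changed its direction in the 15 fits. Libraries of the same number did not deviate together (correlations of their deviations of 0.09, -0.04 and -0.11). With 3 libraries per line, this cannot decide whether libraries of the same number were prepared together. With the replicate number as a block 1477 genes were called, 1086 higher and 391 lower. At the estimated depth, levels under 0.1 FPKM of the short chemokine transcripts are a few fragments, and differences among them were not detectable.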

Other observations

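A few other chemokine genes under 1 FPKM, singled out after their values were seen, had values in MDA-MB-231-BR libraries and hardly any in MDA-MB-231 libraries. CCR7, a receptor that guides cells to lymph nodes, was listed at 0.17, 0.11 and 0.09 FPKM in MDA-MB-231-BR libraries and at 0 in all MDA-MB-231 libraries, and fell below the filter. CMKLR1, the receptor of chemerin, was at 0.34, 0.34 and 0.28 FPKM in MDA-MB-231-BR and 0.01, 0.01 and 0 FPKM in MDA-MB-231 libraries, with a log2 fold change of 1.98 ± 0.187 (SE; limma adjusted p = 4.5e-06). CCL26, a ligand of CCR3, was at 0.25, 0.42 and 0.42 FPKM in MDA-MB-231-BR and at 0, 0 and 0.16 FPKM in MDA-MB-231 libraries, with a log2 fold change of 1.73 ± 0.362 (SE; limma adjusted p = 0.0014). None of the 3 met the criterion of 1 FPKM. CMKLR1 and CCL26 passed the filter only through their MDA-MB-231-BR libraries, so their p-values are not read as evidence of a difference. Other genes went the other way, such as CXCL5, also named after its values were seen. It was listed at 0 in all MDA-MB-231-BR libraries and at 0.02, 0.02 and 0.05 FPKM in MDA-MB-231 libraries.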
